A study of Mus musculus with 16 samples.

Results

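The radiation response of Parp-2-null LSK cells was read from 4 of the 16 arrays of the series: 2 arrays of irradiated Parp-2-/- LSK cells, set against 2 arrays of unirradiated Parp-2-/- LSK cells. The arrays were picked by their genotype, cell type and irradiation labels. LSK cells are bone marrow cells that lack lineage markers and carry Sca1 and c-Kit, a fraction that holds the haematopoietic stem cells and their earliest progeny. The irradiated mice received 5 Gy of gamma radiation and their cells were taken 2.5 hours later, and the other Parp-2-/- mice received no radiation. All mice were on the C57BL/6J strain background, both compared groups lack Parp-2, and every array holds the pooled RNA of no fewer than 3 mice. The 4 arrays of wild-type (WT) LSK cells, 2 irradiated at the same dose and time and 2 unirradiated, served for the estimate of spread and for the test of whether the response differed between genotypes. The labels do not say whether pools shared animals, litters or days, so the p-values measure only the spread between these pools.

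Parp-2 is a nuclear enzyme that binds broken DNA and attaches chains of ADP-ribose to proteins at the break. Gamma radiation breaks both strands of DNA, and the kinases that sense such breaks stabilise p53, a transcription factor whose targets halt the cell cycle, repair DNA or start apoptosis. In bone marrow this pathway decides whether a stem or progenitor cell survives irradiation. A separate checkpoint stops damaged cells before mitosis, and the genes of mitosis are transcribed mainly late in the cell cycle, so their RNA follows the share of cells in that phase.

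Levels are log2 intensities of the deposited table, and a change is the mean of the irradiated arrays minus the mean of the unirradiated arrays in log2 units, given ± its standard error (n = 2 pools per group). A row of the table, which stands for 1 transcript cluster, was called at an adjusted p under 0.05 in limma over 22961 tested rows. Of these, 51 were called (0.222%), 35 of them higher (0.152%) and 16 lower (0.0697%) after irradiation. All 51 changed at least 2.53-fold and 28 changed at least 4-fold, while the median change over all tested rows was -0.00102. With 2 arrays against 2, an exact two-sided permutation test of a single gene cannot give a p below 0.333, so the calls rest on the spread shared over rows and over the 8 LSK arrays. The calls depend on that estimate: with the spread taken from all 16 arrays, 167 rows were higher (0.727%) and 170 lower (0.74%), whereas the 4 arrays alone gave 0 calls (lowest adjusted p = 0.0885, with 1718 rows under 0.05 before adjustment). The 16-array fit draws on myeloid progenitor pools, which differed less (SD between pools 0.162 to 0.225) than LSK pools (0.314 to 0.351). Leaving out 1 LSK array gave 4 to 29 calls, and only Slc19a2 and Tnip3 among the named genes kept their call in all 8 such fits.

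**Figure D1:**
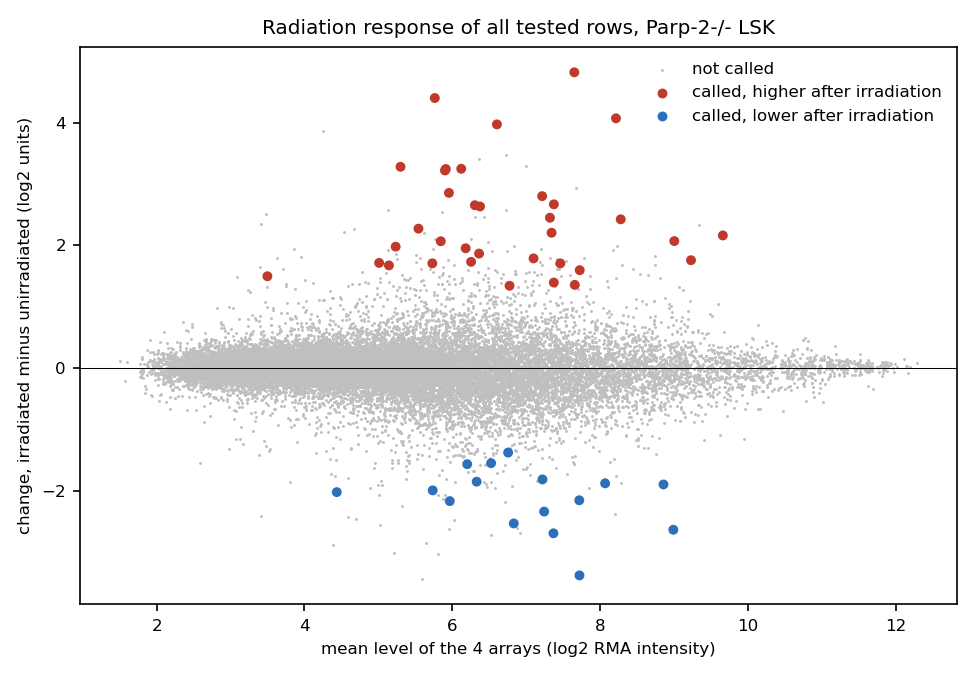
Each point is 1 of the 22961 tested rows, with the mean log2 level of the 4 Parp-2-/- LSK arrays on the x axis and the change, irradiated minus unirradiated, in log2 units on the y axis. The 35 called rises (red) extend to 4.82 and the 16 called falls (blue) to -3.38, and grey points were not called.

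The genotype labels were checked first. Parp2 read 6.14 and 6.77 in irradiated and 5.70 and 6.43 in unirradiated Parp-2-/- LSK cells, against 7.40 to 7.96 on the 4 WT LSK arrays. All Parp-2-/- arrays lay below all WT arrays, with a difference of -1.42 ± 0.21 (p = 0.0556 in an exact permutation within irradiation states, two-sided, the lowest that 36 arrangements can give; limma adjusted p = 0.473, and 0.0422 with the spread from 16 arrays). Part of the probe set may lie outside the deleted stretch, so the remaining signal does not measure remaining protein. Irradiation was not followed by a call for Parp2 itself (0.39 ± 0.30, adjusted p = 0.958), and its 2 groups overlapped. Parp1, which encodes the major enzyme of this kind, read 7.59 and 7.77 in irradiated and 8.22 and 8.04 in unirradiated cells (-0.45 ± 0.19, adjusted p = 0.668). Kit, the receptor gene used in the sort, read 8.78 and 9.02 in irradiated and 9.23 and 9.46 in unirradiated cells, well above the array medians of 4.84 to 4.89. The T cell gene Cd3e, the neutrophil gene Ly6g and the B cell gene Ms4a1 lay below the array medians on all 4 arrays. Itgam, the gene of a surface marker of myeloid cells, read 4.54 and 4.39, below the medians, in irradiated cells, against 4.82 and 5.03 in unirradiated cells, where 1 array lay above its median (-0.47 ± 0.21, adjusted p = 0.75). Ly6a, which encodes Sca1, was not analysed here.

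The largest rises and falls were named only where the groups were separate, so separate groups add no support for these genes. The largest rise was that of Tnip3, whose protein binds A20 and restrains NF-kappaB signalling. Tnip3 read 9.97 and 10.16 on the irradiated arrays, against 4.84 and 5.64 on the unirradiated arrays. Both irradiated arrays stood far above both unirradiated arrays, a 28.3-fold difference (4.82 ± 0.35, adjusted p = 0.00648). Slc19a2, the gene of a high-affinity thiamine transporter, read 8.02 and 7.91 on the irradiated and 3.81 and 3.31 on the unirradiated arrays. Its unirradiated levels lay below the array medians and are not shown to be above background, so the rise was at least 21.1-fold (4.40 ± 0.27, adjusted p = 0.00327).

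Ddias, named for the suppression of apoptosis after DNA damage, read 10.19 and 10.31 on the irradiated arrays, against 6.90 and 5.46 on the unirradiated arrays. Its irradiated arrays were close together and its unirradiated arrays were not, and the difference was 16.8-fold (4.07 ± 0.41, adjusted p = 0.0167). Tnfsf4, which encodes the OX40 ligand of the tumour necrosis factor family, read 8.06 and 9.12, against 4.99 and 4.24 in unirradiated cells. The groups were apart, with a 15.7-fold rise (3.97 ± 0.38, adjusted p = 0.016). Mybl1, the gene of the transcription factor A-Myb, read 7.34 and 8.15 on the irradiated arrays, against 4.04 and 4.95 on the unirradiated arrays (3.25 ± 0.41, adjusted p = 0.0307).

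Further large rises were those of genes with varied roles. Scn3b, which encodes a sodium channel beta subunit, rose by 2.86 ± 0.28, Cby1, an antagonist of beta-catenin, by 2.80 ± 0.38, Erich1 by 2.67 ± 0.26 and the metalloproteinase gene Adamts6 by 1.98 ± 0.22 (adjusted p from 0.016 to 0.041). The unirradiated levels of Scn3b and Adamts6 lay below the array medians, so that their sizes are lower bounds. Cspp1, the gene of a protein of centrosomes and spindle poles, rose on 1 row (2.45 ± 0.34, adjusted p = 0.0421), while its 13 other rows read from -0.64 to 1.80 and were not called. The values therefore describe that row and not the whole gene. A further 10 called rises, outside the rule for named genes and given here after their values were seen, were Mettl27, Map3k8, Rnf169, Eola1, Amelx, Kank3, Gne, Tex15, Rap2a and Fuca1, between 1.95 for Mettl27 and 1.36 for Fuca1. Map3k8 encodes a kinase upstream of MAP kinases, Rnf169 a ubiquitin ligase that acts at double-strand breaks, and Fuca1 a lysosomal fucosidase. Tex15 lay below the array medians in both groups, so its size is not measured. In all, 10 of the 35 called rises had unirradiated levels below the array medians on both arrays.

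**Figure D2:**
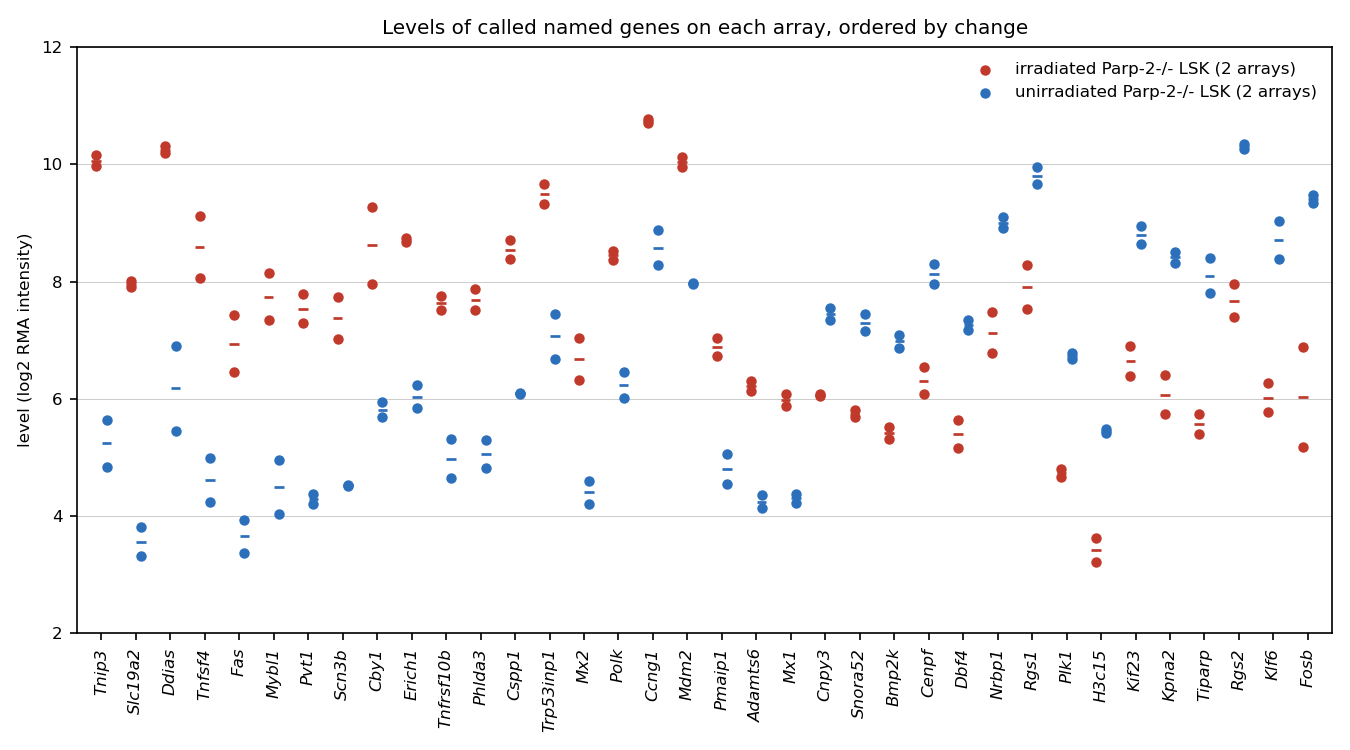
Log2 RMA level (y axis) of the 36 called named genes (x axis, ordered by change) on each array of irradiated (red) and unirradiated (blue) Parp-2-/- LSK cells. Points are arrays and short lines are means of 2, from Tnip3 (10.06 against 5.24) to Fosb (6.03 against 9.41). No gene shown has overlapping groups, which the rule for naming the largest rises and falls required.

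The p53 targets that act in arrest and in feedback on p53 had the most called members of the 44 lists. Of 36 measured members, 7 rose, 0 fell and 29 did not pass (0.152% and 0.0697% of all tested rows rose and fell). The median change of the 36 was 0.89. The irradiated arrays both lay above the unirradiated arrays for 25 of the 36 and below them for 3, against 17.2% and 17.9% of all tested rows. With the spread from 16 arrays, 16 members rose, against 0.727% of all tested rows. The gene of p53, Cdkn1a and Bax were not analysed here.

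Mdm2, which encodes the ubiquitin ligase that returns p53 to a low level, read 9.95 and 10.13 in irradiated cells, against 7.97 and 7.96 in unirradiated cells. The arrays of each group nearly coincided, and the rise was 4.20-fold (2.07 ± 0.19, adjusted p = 0.016). Ccng1, the gene of cyclin G1, a further feedback regulator of p53, read 10.71 and 10.78, against 8.28 and 8.88 in unirradiated cells (2.16 ± 0.25, adjusted p = 0.0243). Phlda3, an inhibitor of Akt signalling, read 7.51 and 7.88 in irradiated and 5.30 and 4.81 in unirradiated cells, a 6.21-fold rise (2.63 ± 0.26, adjusted p = 0.016). In each of these 3 genes the groups were apart by more than either group's own spread.

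Trp53inp1, a nuclear partner of p53, read 9.66 and 9.32 in irradiated cells, against 7.45 and 6.69 in unirradiated cells (2.42 ± 0.30, adjusted p = 0.0307). Polk, which encodes a DNA polymerase that copies past damaged bases, read 8.36 and 8.53, against 6.02 and 6.46 in unirradiated cells (2.21 ± 0.25, adjusted p = 0.021). Both genes had every irradiated array above every unirradiated array. The long non-coding RNA gene Pvt1 read 7.29 and 7.78 on its called row in irradiated cells, against 4.20 and 4.38, below the medians, in unirradiated cells (at least 9.48-fold, 3.24 ± 0.35, adjusted p = 0.0208). A second Pvt1 row read -0.01, so the rise holds for 1 of 2 rows. Psrc1, the gene of a spindle protein and a p53 target, completed the called members (1.79 ± 0.22, adjusted p = 0.0279), and was chosen for mention after its value was seen.

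The promoters of Mdm2 and Ccng1 are shown because both genes rose and are textbook p53 targets whose windows hold a match to the p53 half-site consensus. They were picked for that match, so they do not stand for the other called p53 targets. The sequences are the 200 bases before the annotated start, from RefSeq, assembly GRCm38.p6, at chr10:117710759-117710958 on the minus strand and chr11:40755287-40755486 on the minus strand. Capitals mark the half-site match, 186 bases before the start in Mdm2 and 185 bases before it in Ccng1.
Mdm2: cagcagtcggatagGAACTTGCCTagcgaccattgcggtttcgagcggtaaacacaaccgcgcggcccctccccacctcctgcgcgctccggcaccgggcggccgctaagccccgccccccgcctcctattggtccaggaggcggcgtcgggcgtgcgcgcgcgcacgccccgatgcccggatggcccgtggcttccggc
Ccng1: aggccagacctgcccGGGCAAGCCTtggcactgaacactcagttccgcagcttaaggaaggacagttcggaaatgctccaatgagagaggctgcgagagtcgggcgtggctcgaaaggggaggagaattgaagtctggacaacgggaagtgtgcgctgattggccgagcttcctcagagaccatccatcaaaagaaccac
A half-site match stood in the 250 bases before the start in 9 of 56 windows of the p53 target genes (16.1%), which covered 41 of the 54 measured members, and in 7.13% of the 32851 windows of all genes. The consensus reads the same on both strands. A full element of 2 half-sites up to 13 bases apart was in 0 of the 56 windows and in 0.0639% of all windows. No match says only that these letters are not in this window. A half-site match is a description of sequence and does not show that p53 was bound there.

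Of 18 measured p53 targets that act in apoptosis, 5 rose, 0 fell and 13 did not pass (0.152% and 0.0697% of all tested rows rose and fell). The median change of the 18 was 0.64. The irradiated arrays lay above the unirradiated arrays for 11 of them and below for 2, against 17.2% and 17.9% of all tested rows. Of the 18, 8 rose with the spread from 16 arrays, against 0.727% of all tested rows. Fas, the gene of a cell surface death receptor, read 6.45 and 7.42 in irradiated cells, against 3.94 and 3.38, below the medians, in unirradiated cells (at least 9.72-fold, 3.28 ± 0.39, adjusted p = 0.0273). Tnfrsf10b, the gene of the mouse TRAIL receptor, read 7.52 and 7.75 in irradiated and 5.31 and 4.65 in unirradiated cells, a 6.30-fold rise (2.65 ± 0.31, adjusted p = 0.0243). Both receptor genes had separate groups.

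Pmaip1, which encodes the BH3-only protein Noxa, read 6.72 and 7.03 in irradiated cells, against 5.07 and 4.55 in unirradiated cells (2.07 ± 0.23, adjusted p = 0.021). The other called members, chosen for mention after their values were seen, were Apaf1, the scaffold of the apoptosome (1.60 ± 0.22, adjusted p = 0.0421), and the kinase gene Dapk1 (1.34 ± 0.19, adjusted p = 0.0427). Eda2r, a receptor gene of the tumour necrosis factor receptor family, lay just outside the threshold at adjusted p = 0.0503. It read 6.19 and 7.62 in irradiated and 3.55 and 3.64 in unirradiated cells, which are separate groups with a wide spread among the irradiated arrays.

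The other BCL2 family genes had 0 called members. Of 10 pro-survival genes and inhibitors of apoptosis, 3 had both irradiated arrays below both unirradiated arrays and 0 above, against 17.9% and 17.2% of all tested rows, and the median was -0.08. Mcl1, a pro-survival gene, read 7.51 and 8.09 in irradiated cells, against 8.95 and 8.83 in unirradiated cells (-1.09 ± 0.26, adjusted p = 0.23, and 0.0288 with the spread from 16 arrays). Bcl2 itself read 7.19 and 7.61, against 8.16 and 8.36 in unirradiated cells (-0.86 ± 0.22, adjusted p = 0.28). The 14 pro-apoptotic genes outside the p53 list had a median of -0.33, with Bmf at -0.61 ± 0.25 and Bcl2l11, which encodes Bim, at 0.44 ± 0.31.

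Genes of mitosis lay mostly on the other side. Of 78 measured in 4 groups by role, 3 fell, 0 rose and 75 did not pass (0.0697% and 0.152% of all tested rows fell and rose). With the spread from 16 arrays, 20 of the 78 fell, against 0.74% of all tested rows. The median change was -0.67. Both irradiated arrays lay below both unirradiated arrays for 61 of the 78 and above them for 5, against 17.9% and 17.2% of all tested rows. The mean level of the 78 genes was 6.60 and 6.86 on the irradiated arrays, against 7.55 and 7.46 on the unirradiated arrays. The share of cells in each phase was not measured, and in bulk RNA fewer cells of a kind and less RNA per cell cannot be told apart.

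Kif23, the gene of a kinesin of the central spindle needed for cytokinesis, read 6.39 and 6.89 in irradiated cells, against 8.64 and 8.95 in unirradiated cells, and fell by 2.15 ± 0.23 on the log2 scale (adjusted p = 0.0208). Plk1, the gene of the kinase that drives entry into mitosis, read 4.67 and 4.81, against 6.67 and 6.79 in unirradiated cells (-1.99 ± 0.23, adjusted p = 0.0227). Cenpf, which encodes a kinetochore protein, read 6.08 and 6.54, against 7.96 and 8.29 in unirradiated cells (-1.81 ± 0.25, adjusted p = 0.0419). In all 3 the groups stood clear of each other. Plk1 lay below the array medians after irradiation, so that its size of 3.98-fold is a lower bound.

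The promoters of these 3 genes are shown because they are the called members of the mitosis lists, and late cell cycle promoters are known for CCAAT boxes. The sequences are the 150 bases before the annotated start, from RefSeq, assembly GRCm38.p6, at chr9:61946800-61946949 on the minus strand, chr7:122159285-122159434 on the plus strand and chr1:189688087-189688236 on the minus strand. Capitals mark CCAAT on either strand, which begins 7 bases before the start in Kif23, 14 in Plk1, and 132 and 71 in Cenpf.
Kif23: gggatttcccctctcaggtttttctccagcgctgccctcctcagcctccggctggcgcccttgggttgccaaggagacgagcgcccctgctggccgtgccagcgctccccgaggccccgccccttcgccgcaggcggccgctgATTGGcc
Plk1: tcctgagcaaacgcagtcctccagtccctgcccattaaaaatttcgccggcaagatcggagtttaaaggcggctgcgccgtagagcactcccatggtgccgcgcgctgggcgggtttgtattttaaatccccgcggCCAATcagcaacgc
Cenpf: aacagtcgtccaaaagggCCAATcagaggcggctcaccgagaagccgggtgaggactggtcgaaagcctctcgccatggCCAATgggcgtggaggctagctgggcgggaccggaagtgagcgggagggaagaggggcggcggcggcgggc
CCAAT on either strand was in the 250 bases before the start in 47 of 70 windows of mitosis genes (67.1%), which covered 65 of the 78, and in 33.8% of all windows. At least 2 copies were in 37.1% of the mitosis windows and 10.1% of all windows. CCAAT was also in 50% of the windows of p53 target genes and 52% of those of called rises. At least 2 copies were in 21.4% and 28% of these, so the box is not particular to mitosis genes. TTTGAA, the cell cycle homology element that often stands beside the CCAAT box, was in 34.3% of the mitosis windows and 16% of all windows, again on either strand. Among all called falls it was in 7.14% of 14 windows, and among called rises in 16% of 25 windows. These shares are descriptions of sequence and say nothing of which factor was bound.

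The 25 genes of the spindle and of kinesins had the lowest median of the 4 groups, -1.16. Of these, 22 were lower on both irradiated arrays, against 17.9% of all tested rows. Prc1, which bundles the microtubules of the central spindle, read 4.23 and 5.05 in irradiated cells, against 7.42 and 7.11 in unirradiated cells (-2.63 ± 0.42, adjusted p = 0.0728). Tpx2, an activator of Aurora kinase on the spindle, read 5.89 and 5.80, against 7.68 and 7.85 in unirradiated cells (-1.92 ± 0.34, adjusted p = 0.096). Both had separate groups and were not called, and both passed with the spread from 16 arrays (adjusted p = 0.00247 and 0.00496). Of the 16 kinase and phosphatase genes, 13 were lower on both irradiated arrays, with a median of -0.63. In that group Cdc25c, the phosphatase gene for entry into mitosis, read -1.63 ± 0.30 (adjusted p = 0.106) and Aurka -1.47 ± 0.44 (adjusted p = 0.399).

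Of the 22 kinetochore and condensation genes, 18 were lower on both irradiated arrays (17.9% of all tested rows), with a median of -0.48. Among them Sgo2a, a protector of cohesion, read -1.88 ± 0.36 (adjusted p = 0.13). The 15 genes of mitotic cyclins and protein degradation had a median of -0.41, and 8 of them were lower on both irradiated arrays. Ube2c, the ubiquitin-conjugating enzyme gene of the anaphase-promoting complex, read 6.08 and 5.80 in irradiated cells, against 7.30 and 7.23 in unirradiated cells (-1.33 ± 0.23, adjusted p = 0.0929). Ccnb2, a mitotic cyclin gene, read -1.14 ± 0.31 (adjusted p = 0.32). Ccnb1 was not analysed here.

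**Figure D3:**
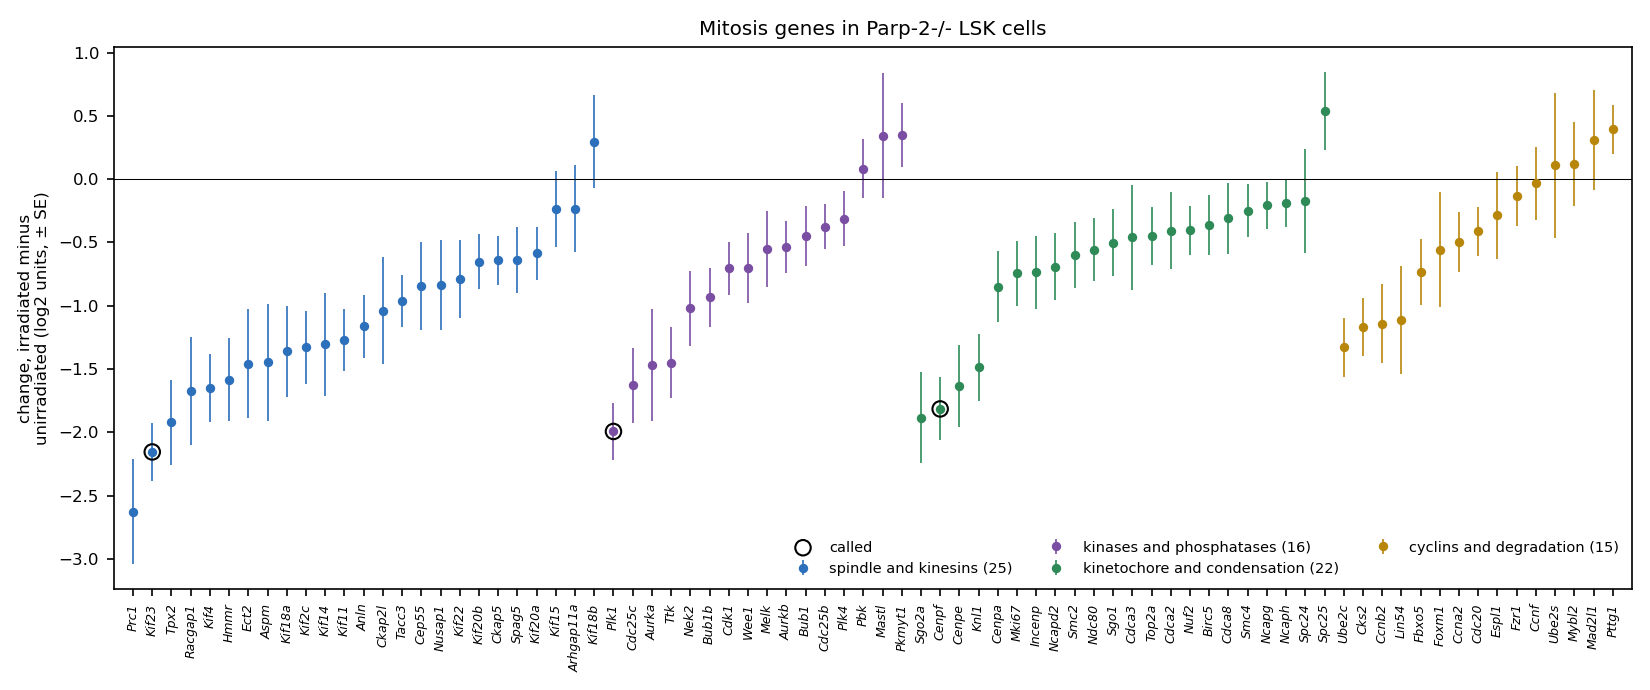
Change, irradiated minus unirradiated Parp-2-/- LSK cells, in log2 units (y axis, ± SE) of the 78 measured mitosis genes (x axis), coloured by role and ordered by change. Of the 78, 61 were lower on both irradiated arrays (17.9% of all tested rows), and rings mark the 3 called members, Kif23 (-2.15), Plk1 (-1.99) and Cenpf (-1.81).

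Lists of other cell cycle phases had medians nearer 0. The 40 DNA replication genes had 0 calls and a median of -0.13, with 13 lower and 4 higher on both irradiated arrays (17.9% and 17.2% of all tested rows), and Pole2, a subunit of DNA polymerase epsilon, at -1.08 ± 0.28 (adjusted p = 0.286). Outside that list, Dbf4, the gene of the activator of the Cdc7 kinase that fires replication origins, fell by 1.85 ± 0.26 on the log2 scale, reading 5.16 and 5.65 in irradiated and 7.17 and 7.34 in unirradiated cells (adjusted p = 0.0427). The 19 genes of G1 and S phase cyclins, kinases and inhibitors had a median of -0.04 and 0 calls. In that group the inhibitor gene Cdkn1b, which encodes p27, read 6.09 and 6.32, against 7.70 and 7.92 in unirradiated cells (-1.61 ± 0.26, adjusted p = 0.073), and a second row read -1.03. The 22 ribosomal protein genes had a median of 0.06 and a range from -0.12 to 0.19.

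Kpna2, which encodes the nuclear import receptor importin alpha 1 and is high in dividing cells, fell on 1 row, with 5.74 and 6.40 in irradiated cells, against 8.32 and 8.50 in unirradiated cells (-2.34 ± 0.24, adjusted p = 0.0208). The other Kpna2 rows read -2.60 (adjusted p = 0.0966) and -1.56 (adjusted p = 0.163), so the direction was the same on 3 rows. The called row may share probes with near-identical copies, so its value is uncertain. H3c15, a histone H3 gene, read 3.23 and 3.63, below the medians, in irradiated cells, against 5.42 and 5.48 in unirradiated cells (-2.02 ± 0.21, adjusted p = 0.0208). Histone genes have near-identical copies that probes may share, so the H3c15 value is uncertain.

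Genes that cells switch on within minutes of a stimulus were mostly lower as well. Of 27 measured immediate early genes of the AP-1, EGR and NR4A families, 1 fell, 0 rose and 26 did not pass. The shares of all tested rows were 0.0697% and 0.152%. The median of the 27 was -0.67. On both irradiated arrays 17 were lower and 3 higher (17.9% and 17.2% of all tested rows). With the spread from 16 arrays, 5 fell and 1 rose, against 0.74% and 0.727% of all tested rows. Fosb, a subunit of the transcription factor AP-1, read 5.18 and 6.89 in irradiated cells, against 9.48 and 9.34 in unirradiated cells. Its irradiated arrays differed widely but both lay below the unirradiated arrays, and the fall was 10.4-fold (-3.38 ± 0.48, adjusted p = 0.0459).

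Nr4a1, the gene of an orphan nuclear receptor, read 5.02 and 5.31 in irradiated and 8.60 and 7.16 in unirradiated cells (-2.72 ± 0.49, adjusted p = 0.1). Nr4a2, a close relative, read 5.49 and 5.66, against 9.37 and 7.17 in unirradiated cells (-2.69 ± 0.66, adjusted p = 0.255). In both the groups were separate, unirradiated pool 1 was the highest array, and the test was not passed. Fos read -1.57 ± 0.33 (adjusted p = 0.173).

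Klf6, a Kruppel-like transcription factor gene, read 5.78 and 6.26 in irradiated cells, against 9.04 and 8.39 in unirradiated cells, and was the called member of 12 Kruppel-like genes (-2.69 ± 0.34, adjusted p = 0.0307). Of those 12, 7 were lower on both irradiated arrays and 0 were higher (17.9% and 17.2% of all tested rows), with a median of -0.55. Among 22 genes of feedback on MAP kinase and G-protein signalling, 2 fell, 0 rose and 20 did not pass. The shares of all tested rows that fell and rose were 0.0697% and 0.152%. The median of the 22 was -0.43. Rgs2, which shortens G-protein signals, read 7.40 and 7.95, against 10.35 and 10.27 in unirradiated cells, a 6.21-fold fall (-2.63 ± 0.23, adjusted p = 0.016). Rgs1, a regulator of the same family, read 7.54 and 8.28, against 9.95 and 9.66 in unirradiated cells (-1.90 ± 0.27, adjusted p = 0.0464).

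The promoters of Fosb and Rgs2 are shown because both genes fell and carry TGACG, the half-site of the cAMP response element found in many immediate early promoters. The sequences are the 150 bases before the annotated start, from RefSeq, assembly GRCm38.p6, at chr7:19310046-19310195 on the minus strand and chr1:144004150-144004299 on the minus strand. Capitals mark TGACG, which begins 60 bases before the start in Fosb and 67 bases before it in Rgs2.
Fosb: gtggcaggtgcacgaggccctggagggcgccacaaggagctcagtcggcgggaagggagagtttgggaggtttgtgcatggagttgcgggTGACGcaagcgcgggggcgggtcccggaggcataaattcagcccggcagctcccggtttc
Rgs2: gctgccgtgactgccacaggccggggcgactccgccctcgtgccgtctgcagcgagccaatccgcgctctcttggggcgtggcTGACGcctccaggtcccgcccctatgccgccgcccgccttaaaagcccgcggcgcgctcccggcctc
TGACG on either strand was in the 250 bases before the start in 27 of 54 windows of the immediate early, Kruppel-like and feedback genes (50%), which covered 46 of 61 genes, and in 17.8% of all windows. At least 2 copies were in 22.2% and 3.9%. Klf6 and Rgs1, also called, are not shown, because either no window was listed or the half-site was not in the 150 bases before the start.

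Tiparp, which encodes a mono-ADP-ribosyltransferase, a distant relative of Parp-2, read 5.73 and 5.40 in irradiated cells, against 8.39 and 7.80 in unirradiated cells, a 5.78-fold fall (-2.53 ± 0.34, adjusted p = 0.0407). Further falls were those of Nrbp1 (-1.88 ± 0.26), the kinase gene Bmp2k (-1.57 ± 0.22) and Cnpy3, a chaperone of Toll-like receptors (-1.38 ± 0.18), with adjusted p from 0.0407 to 0.0464. In each of these genes both irradiated arrays lay below both unirradiated arrays. Isca1, an iron-sulfur cluster assembly gene, was not called on either of its rows, which read -1.26 (adjusted p = 0.0815) and -3.43 (adjusted p = 0.0913).

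Of 19 measured genes of the NF-kappaB pathway, Tnip3 was the 1 called member (0.222% of all tested rows were called). The median was 0.25, and 11 of the 19 were higher and 1 lower on both irradiated arrays, against 17.2% and 17.9% of all tested rows. Bcl3, a nuclear partner of NF-kappaB, read 5.87 and 6.07 in irradiated cells, against 4.85 and 4.66, below the medians, in unirradiated cells (1.22 ± 0.20, adjusted p = 0.073, and 0.0641 with the spread from 16 arrays). Nfkbid, the 1 member lower on both irradiated arrays, read 5.06 and 5.05, against 5.86 and 5.73 in unirradiated cells (-0.74 ± 0.20, adjusted p = 0.322, and 0.0376 with the spread from 16 arrays). Cxcl10, a chemokine gene, lay just outside the threshold with 7.90 and 9.01, against 5.07 and 4.90 in unirradiated cells (3.47 ± 0.52, adjusted p = 0.0531). Cd55, which protects cells from complement, read 8.45 and 8.82, against 5.02 and 5.67 in unirradiated cells (3.30 ± 0.48, adjusted p = 0.0513). The groups of Bcl3, Cxcl10 and Cd55 did not overlap. The 28 chemokine and cytokine genes had 0 calls and a median of 0.09, with 7 higher and 5 lower on both irradiated arrays (17.2% and 17.9% of all tested rows). Among them Ccl3, a further chemokine gene, read 7.03 and 7.67 in irradiated cells, against 9.62 and 8.82 in unirradiated cells (-1.87 ± 0.32, adjusted p = 0.0907). Of the 22 genes of the tumour necrosis factor superfamily and co-stimulatory surface molecules, the list that holds Cd55, Tnfsf4 was the 1 called member, with a median of 0.06 and 8 higher and 4 lower on both irradiated arrays. Cd86, a co-stimulatory ligand gene of that list, read 3.73 and 3.48, below the medians, in irradiated cells, against 4.56 and 5.62 in unirradiated cells (-1.49 ± 0.33, adjusted p = 0.197).

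Of 32 interferon-stimulated genes, 2 rose, 0 fell and 30 did not pass (0.152% and 0.0697% of all tested rows rose and fell). The median of the 32 was 0.03, with 13 higher and 9 lower on both irradiated arrays, against 17.2% and 17.9% of all tested rows. Mx2, an antiviral dynamin-like GTPase gene, read 6.32 and 7.03 in irradiated cells, against 4.20 and 4.61, below the medians, in unirradiated cells (at least 4.83-fold, 2.27 ± 0.28, adjusted p = 0.0287). Mx1, its neighbour on chromosome 16, read 5.88 and 6.08, against 4.38 and 4.23, again below the medians, in unirradiated cells (1.67 ± 0.19, adjusted p = 0.0243). Probes of such related genes may share signal, and Ifit1, a further member, was not called (1.56 ± 0.49, adjusted p = 0.435). Cybb, the gene of the phagocyte NADPH oxidase subunit gp91phox, read 7.98 and 8.15, against 3.74 and 5.58 in unirradiated cells (3.40 ± 0.53, adjusted p = 0.0681). The 11 phagocyte NADPH oxidase genes had 0 calls and a median of 0.04, with 3 higher and 2 lower on both irradiated arrays, and Rac2 and Ncf4, further subunits, at -0.68 ± 0.37 and -0.52 ± 0.21.

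**Figure D4:**
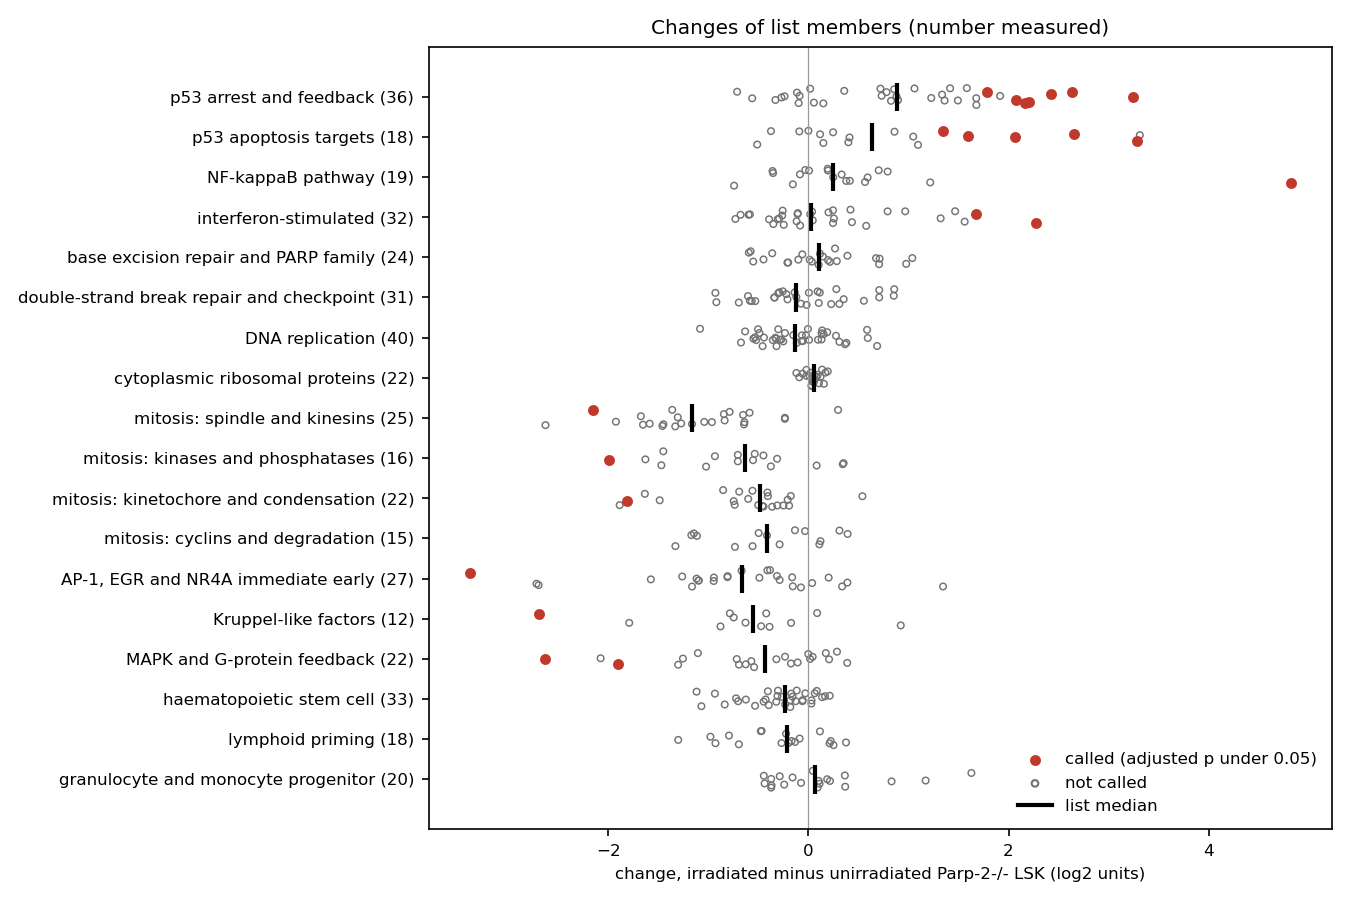
Change, irradiated minus unirradiated Parp-2-/- LSK cells, in log2 units (x axis) of every measured member of 18 gene lists (rows, number measured in brackets). Filled points are called members, open points are not called, and black bars are list medians, from 0.89 for p53 arrest and feedback genes to -1.16 for spindle and kinesin genes.

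The repair lists had medians near 0 and 0 called members, but some repair genes that rose are not on them. Polk, called, and Ercc5 were placed in the p53 arrest and feedback list. Ercc5 read 1.68 ± 0.34 (adjusted p = 0.166 in limma, and 0.0133 with the spread from 16 arrays). Rnf169, which acts at double-strand breaks, was called (1.76 ± 0.21, adjusted p = 0.0266). Of 31 genes of double-strand break repair and its checkpoint, 0 were called, with a median of -0.12 and Chek1 and Chek2, the genes of the checkpoint kinases, at -0.93 ± 0.31 and 0.85 ± 0.33. Of 24 genes of base excision repair and the PARP family, 0 were called, with a median of 0.11. Parg, which removes ADP-ribose chains, read 8.25 and 7.98 in irradiated cells, against 7.10 and 7.18 in unirradiated cells (0.98 ± 0.21, adjusted p = 0.177, and 0.0178 with the spread from 16 arrays). Parp14, a mono-ADP-ribosyltransferase gene, read 1.04 ± 0.27 (adjusted p = 0.279). Polk apart, Rev1, a further translesion polymerase gene, read 7.44 and 7.12, against 6.00 and 6.49 in unirradiated cells (1.04 ± 0.25, adjusted p = 0.26).

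The lists of lineage genes had 0 called members in limma. Of 33 haematopoietic stem cell genes, 13 were lower and 1 higher on both irradiated arrays, against 17.9% and 17.2% of all tested rows, with a median of -0.23. Runx1, a transcription factor gene of blood stem cells, read 7.28 and 7.80 in irradiated cells, against 8.92 and 8.30 in unirradiated cells (-1.07 ± 0.27, adjusted p = 0.279, and 0.0426 with the spread from 16 arrays). Of 18 lymphoid priming genes, 9 were lower and 2 higher on both irradiated arrays, with a median of -0.21 and Dntt, the template-independent polymerase gene, at -1.30 ± 0.32 (adjusted p = 0.255). The 20 granulocyte and monocyte progenitor genes had mean levels of 7.25 and 7.37 on the irradiated arrays, against 7.22 and 7.16 on the unirradiated arrays. On both irradiated arrays 5 of the 20 were higher and 5 lower, with a median of 0.07. Elane, which encodes neutrophil elastase, read 1.63 ± 0.41 (adjusted p = 0.27, and 0.041 with the spread from 16 arrays). Irf8, of the same list, read -0.44 ± 0.31 (adjusted p = 0.945).

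Markers of T and NK cells, neutrophils and macrophages had mean levels below the array medians in both groups, and erythroid genes lay near the mean of all tested rows. The 17 genes of T and NK cells had mean levels of 4.16 and 4.14 on the irradiated arrays, against 4.16 and 4.09 on the unirradiated arrays, and 13 of them lay below the array medians on all 4 arrays. The 14 mature neutrophil genes had 4.33 and 4.19, against 4.33 and 4.14 in unirradiated cells, and the 16 macrophage genes 4.65 and 4.73, against 4.43 and 4.63, with 9 of each list below the medians on all 4 arrays. The 20 erythroid genes had 5.25 and 5.27, against 5.19 and 5.33 in unirradiated cells, and 6 of them lay below the medians on all 4 arrays. These means exceed the array medians, but so does the mean of all tested rows. That mean was 5.31 and 5.32 on the irradiated arrays, against 5.34 and 5.31 on the unirradiated arrays. Of all 22961 tested rows, 9068 lay below the medians on all 4 arrays. Of the 20 erythroid genes, 2 were higher and 4 lower on both irradiated arrays (17.2% and 17.9% of all tested rows), with a median of 0.01. Car1, an erythroid carbonic anhydrase gene, read 6.66 and 7.99 in irradiated cells, against 6.59 and 6.68 in unirradiated cells (0.70 ± 0.60, adjusted p = 0.982). Tfrc, of the same list, read 6.59 and 6.40, against 6.94 and 7.47 in unirradiated cells (-0.71 ± 0.26, adjusted p = 0.547). The 16 B lymphocyte genes had 4.68 and 4.92, against 4.59 and 4.78 in unirradiated cells. The B lymphocyte gene Vpreb1, a part of the surrogate light chain, read 6.71 and 9.32, against 5.19 and 5.67 in unirradiated cells (2.58 ± 0.84, adjusted p = 0.451). Its irradiated arrays lay far apart, and the part of such cells in the results was not tested.

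Whether the response differed from that of WT LSK cells was tested as an interaction, the Parp-2-/- change minus the WT change. In limma 0 of 22961 rows were called (0%), and the smallest adjusted p was 0.381. An unadjusted p under 0.05 was found for 1066 rows, no more than that threshold would be expected to pass if no row differed. With the spread from all 16 arrays 2 rows were called, Olfr652 and a row shared by several U1 RNA genes. A difference that misses the threshold does not show that the genotypes responded alike, since the interaction compares 4 groups of 2 pools.

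H3c15 had the smallest p. It read 3.23 and 3.63 in irradiated and 5.42 and 5.48 in unirradiated Parp-2-/- cells, and 4.66 and 4.46 in irradiated and 3.91 and 4.12 in unirradiated WT cells. All 4 WT values and both irradiated Parp-2-/- values lay below the array medians, so neither the WT change nor the size of the interaction is measured for H3c15 (fitted value -2.56 ± 0.30, adjusted p = 0.381). Snora52, a small nucleolar RNA gene, read 5.81 and 5.69 in irradiated and 7.45 and 7.15 in unirradiated Parp-2-/- cells, where it fell (-1.55 ± 0.21, adjusted p = 0.0407), and 7.29 and 7.29 in irradiated and 6.61 and 6.29 in unirradiated WT cells (interaction -2.39 ± 0.29, adjusted p = 0.381). Bmp2k read -1.57 in Parp-2-/- and 0.64 in WT cells (interaction -2.20 ± 0.32, adjusted p = 0.736). Commd6 read -1.38 in Parp-2-/- and 0.84 in WT cells (interaction -2.22 ± 0.36), and Dmac2 1.38 in Parp-2-/- and -0.49 in WT cells (interaction 1.87 ± 0.30, adjusted p = 0.736 for both). Olfr652, an olfactory receptor gene, read 1.38 in Parp-2-/- and -0.49 in WT cells (interaction 1.87 ± 0.29, adjusted p = 0.736), with unirradiated Parp-2-/- and all WT levels below the array medians. None of these 6 interactions passed.

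Among the genes called in Parp-2-/- cells, Slc19a2 read 3.81 and 3.31 in unirradiated Parp-2-/- cells, against 5.59 and 4.96 in unirradiated WT cells, and its change was 4.40 in Parp-2-/- and 2.46 in WT cells (interaction 1.94 ± 0.37, adjusted p = 0.784). Kif23 changed by -2.15 in Parp-2-/- cells, against a difference of -0.68 in WT cells (interaction -1.47 ± 0.32, adjusted p = 0.925). Tnip3 read 4.82 in Parp-2-/- and 4.41 in WT cells (interaction 0.41 ± 0.49), Mdm2 2.07 and 1.76 (interaction 0.32 ± 0.27), and Plk1 -1.99 and -2.11 (interaction 0.12 ± 0.32). None of these 5 interactions passed.

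**Figure D5:**
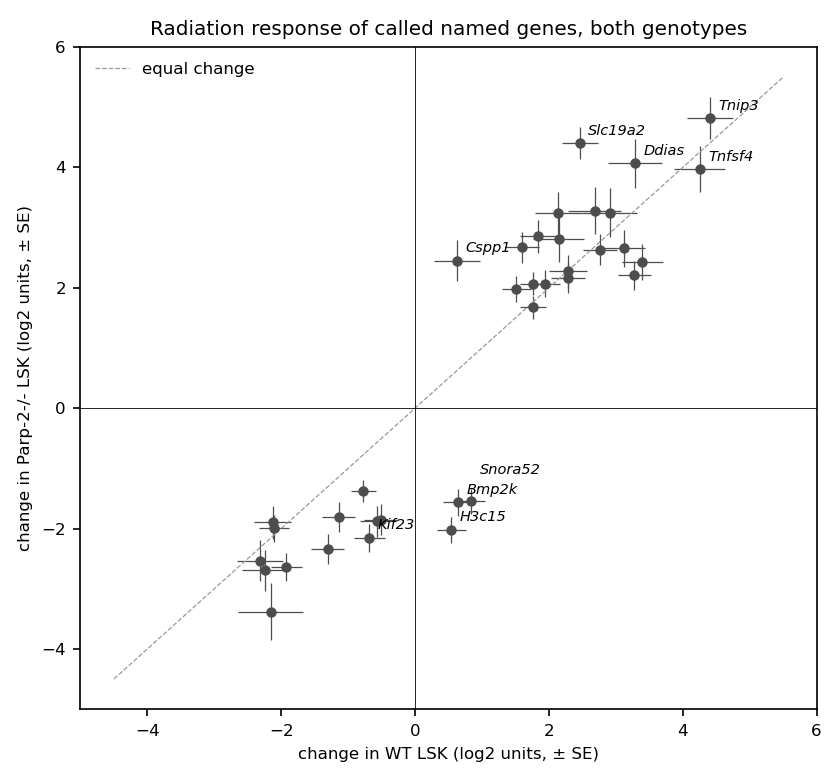
Change after irradiation in log2 units (± SE) of the 36 named genes called in Parp-2-/- LSK cells, in Parp-2-/- cells (y axis) against WT cells (x axis), with a dashed line of equal change. The genes were chosen by their change on the y axis, 33 of the 36 have the same sign in both genotypes, and Bmp2k, Snora52 and H3c15 do not, the last with WT levels below the array medians.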

How the data were processed

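The authors deposited log2 intensities per transcript cluster of 16 Affymetrix Mouse Gene arrays; per the submitters' processing notes, RMA, limma, affy 2.10 and R 2.15 were used, with no role or order given. RMA (robust multi-array averaging) corrects background, equalises the arrays and summarises probes. The log base was read from the values, and the set of arrays normalised together is not given in the sources used here. Values were used without further scaling. The table holds no detection calls, so a level under its array's median is not shown to be above background.

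Of 34760 rows, 21640 carried 1 symbol, 1321 several and 11799 none. The 22961 with a symbol were tested, and genes were named from rows with 1 symbol. A linear model of 4 group means was fitted to the 8 LSK arrays in limma 3.58.1 under R 4.3.3 (eBayes, 4 residual and 4.15 prior degrees of freedom, two-sided, Benjamini-Hochberg adjustment). Precision is limited by the number of arrays, with a median standard error of 0.242 log2 units for the response. The fit was tested on simulated data.

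Named genes were Parp2, Parp1, the 20 largest rises and falls among called rows with separate groups (predicted genes, small RNA genes and receptor families skipped), the members of each list with the largest changes (4 at most) and the 6 genes with 1 symbol and the smallest interaction p-values, of any kind. Not all are printed. Where a list gene had several rows, the one with the highest mean level stood for it. Of 932 genes on 44 lists, 855 matched a row, 7 through an older symbol. The arrays, members and lists were chosen with earlier results of these data known. Promoters were matched by symbol. Alternatives were the arrays that give the spread, quantile normalisation, rows without a symbol, a filter on dim rows, the prior variance, the mean over a gene's rows for list medians, a looser threshold, a replicate block by pool number and leaving out each LSK array.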

Additional observations from a re-analysis of the deposited data

How the results depend on the processing

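The direction of the called rows of the 36 named genes held in each alternative fit, but this was largely fixed in advance. Their groups did not overlap, so leaving out an array could not reverse a direction. Apart from the quantile normalisation, the other fits left the changes as they were. The counts of calls rested on the spread estimate. Other rows of a gene did not all share the direction of the called row: the second Pvt1 row (-0.01) and 5 of the 13 other Cspp1 rows lay below 0. With each gene taken as the mean over its rows, 2 of 44 list medians moved by more than the spread between arrays and 0 changed sign. The response had 51 calls, 36 called named genes and 24 called list members. With all 16 arrays these were 337, 36 and 85, with the 4 compared arrays alone 0, 0 and 0, and with rows without a symbol also tested 2, 1 and 1. The pair of calls in the last of these were Slc19a2 and a row without a symbol, and 34760 rows then entered the adjustment. A further quantile normalisation gave 41 calls, 33 higher and 8 lower, against 35 and 16 as deposited; leaving out dim rows gave 54 and a trended, robust prior variance 53. A threshold of 0.1 gave 108. Leaving out 1 of the 8 LSK arrays gave 4 to 29 calls, 3 to 20 called named genes and 2 to 14 called list members. The lowest counts came without WT LSK irradiated pool 1 or pool 2 (4 calls each) and without Parp-2-/- LSK unirradiated pool 2 (6). A group left with 1 array was assumed to vary like the others. The interaction had 0 calls, 2 with all 16 arrays and 1, a row without a symbol, with rows without a symbol also tested. The Parp2 difference between genotypes (-1.42) passed with all 16 arrays (adjusted p = 0.0422). In the replicate block by pool number, 30 rows and 22 named genes were called. Deviations of same-numbered pools correlated between -0.0772 and 0.047, so no strong effect shared by pool number was seen across rows. These correlations cannot tell whether such pools shared animals, litters or days. The cause of the shifts in the counts was not tested. The 2 pools per group limit every value given.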
